A study of Mus musculus with 18 samples.

Results

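The genes described here are 10 early-response genes of the mouse, taken by symbol from the expression table: Egr1, Egr2, Egr3, Srf, Ier2, Ier3, Ier5, Klf4, Klf6 and Klf10. They are 10 of the 30452 genes listed, and all 10 passed the filter on low values (FPKM, fragments per unit of gene length and sequencing depth, of at least 1 in at least 3 libraries) that left 11936 genes for testing. RNA came from MC3T3-E1, a pre-osteoblast line derived from mouse calvaria, grown for 5 days at 20000 seeded cells per well on sterilised fibre membranes cut to 15 mm discs. The membranes were poly-L-lactic acid (PLLA), PLLA carrying zinc oxide (PLLA/ZnO), a piezoelectric filler, and the same composite with collagen (PLLA/ZnO@Col). Each membrane was kept without ultrasound or given ultrasound for 10 min every day, with 3 libraries in each of the 6 groups and 18 in all. All groups therefore share the cell line, the PLLA backbone and the culture time, and the effect of collagen can be read only on top of zinc oxide, since no PLLA membrane carried collagen alone. Nothing in the labels states that the replicates were grown as separate cultures, so each p-value reflects no more than the variation among these libraries, which may be technical. The labels also do not say how long after the last ultrasound session the cells were collected.

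Immediate early genes are switched on within minutes of a stimulus by factors already present in the cell, without new protein synthesis, and most of their transcripts decay quickly. Serum response factor (Srf) binds the CArG box together with ETS-family cofactors that are phosphorylated by the MAP kinase cascade, or with cofactors that sense free actin, and it drives many genes of this class, Egr1 and its own gene among them. The EGR proteins are zinc-finger factors that bind a GC-rich element, and in osteoblast-lineage cells Egr1 is known as an early responder to mechanical load and growth factors.

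Promoter stretches are shown for the members in which an element bound by Srf or by EGR proteins was found. A RefSeq promoter table (GRCm38.p6) held a window for 6 of the members, namely Egr2, Srf, Ier3, Ier5, Klf4 and Klf6. Egr1, Egr3, Ier2 and Klf10 were not in it. The 250 bases before each listed start were searched on both strands for the CArG box, for the EGR element GCGNGGGCG, for the cAMP response element TGACGTCA and for the AP-1 element TGANTCA. In the lines below, capitals mark the matches, and each sequence is written 5′ to 3′ on the strand of the gene.
Srf, chr17:46556203-46556302, minus strand: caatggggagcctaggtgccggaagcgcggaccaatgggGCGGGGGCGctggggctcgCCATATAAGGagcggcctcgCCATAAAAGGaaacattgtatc
Egr2, chr10:67537484-67537513, plus strand: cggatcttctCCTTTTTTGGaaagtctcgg
Egr2, chr10:67537787-67537816, plus strand: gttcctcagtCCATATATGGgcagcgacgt
Klf4, chr4:55532651-55532700, minus strand: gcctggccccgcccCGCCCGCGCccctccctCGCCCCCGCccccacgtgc

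None of the stretches overlaps an annotated exon of its gene. The Srf window held a pair of CArG boxes, beginning 82 and 62 bases before the start, and an EGR element 101 bases before it. Egr2 held a CArG box before 4 of its 5 listed starts, at the 2 sites shown. The start without a match, chr10:67535499, is the one nearest the beginning of the gene (chr10:67535475-67542188). Both sites lie inside that span, before starts further in. A CArG box was thus found in 2 of the 6 members, against 1.62% of the 27025 genes in the table, each counted over all its windows of this length. These genes have 32851 windows, of which Egr2 has 5, so the shares are not fully alike. The EGR element was found in Srf, and at a pair of sites on the opposite strand in Klf4, against 5.33% of all genes. None of the 6 searched members held the cAMP response element (1.77% of all genes) or the AP-1 element (7.82%). These are letter matches and describe the windows only.

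Total counts per library were 48307580 to 78039543, and a member's count in a library was between 372 (Egr2) and 26198 (Egr1). The 7 mesenchymal and pre-osteoblast markers were all expressed, with summed levels of 2875 to 4775 FPKM, while none of the 4 later osteoblast markers passed the filter on low values (summed level at most 1.26 FPKM). Some libraries stood apart from the labels. Summed Y-linked reads were 1.64 to 3.05% of the median library in 3 libraries (PLLA/ZnO@Col without ultrasound replicates 1 and 3, and with ultrasound replicate 1). They were 18.7 to 45.9% in 4 libraries (PLLA with ultrasound replicate 3, PLLA/ZnO with ultrasound replicate 3, and PLLA/ZnO@Col with ultrasound replicates 2 and 3), and 79.8 to 150% in the other 11. Mitochondrial counts were 1.83 to 2.27%, 1.57 to 1.87% and 2.31 to 4.54% of the total in these sets. The summed level of the macrophage list was 33.5 to 37.2, 6.51 to 9.22 and 6.50 to 30.8 FPKM, mostly from Lyz2 and Cd68. Csf1r, Itgam and Tyrobp also passed the filter on low values, at up to 1.68, 1.64 and 1.40 FPKM. Ptprc, Adgre1 and C1qa did not pass it, at up to 0.0935, 0.0813 and 0.240 FPKM. No library of PLLA/ZnO@Col with ultrasound, and 1 of PLLA/ZnO@Col without it, belonged to the set of 11. Collagen and this split therefore cannot be told apart when ultrasound was given. All 4 libraries with partial Y-linked reads had been given ultrasound, so ultrasound and this set cannot be fully told apart either. For some members, comparisons with PLLA/ZnO@Col are also given without each set, and ultrasound on the other membranes without the 4. Fold changes, counts and medians of the related gene lists are given from the fit of all libraries only.

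Egr1 was the member that differed most between groups. Egr1 (chr18:34859823-34864984, plus strand) encodes the best-known EGR factor. On PLLA it stood at 54.3, 59.6 and 25.2 FPKM without ultrasound and at 71.3, 66.0 and 43.4 FPKM with it. On PLLA/ZnO it stood at 26.4, 23.8 and 26.0 FPKM without ultrasound and at 32.6, 31.3 and 35.2 FPKM with it. On PLLA/ZnO@Col it stood at 36.1, 55.7 and 56.2 FPKM without ultrasound and at 70.9, 80.7 and 93.5 FPKM with it. All 6 PLLA/ZnO libraries were at or below 35.2 FPKM, and outside them only PLLA without ultrasound replicate 3 was as low. Group means ran from 25.4 ± 1.39 FPKM (SD, n = 3) on PLLA/ZnO without ultrasound to 81.7 ± 11.4 FPKM (SD, n = 3) on PLLA/ZnO@Col with ultrasound, a ratio of 3.22. In the order PLLA/ZnO, PLLA/ZnO with ultrasound, PLLA, PLLA/ZnO@Col, PLLA with ultrasound and PLLA/ZnO@Col with ultrasound, only the lowest pair of neighbours did not overlap. The test of any difference among the 6 groups gave Egr1 an unadjusted p of 0.00024, and an adjusted p of 0.18 with edgeR's quasi-likelihood test and Benjamini-Hochberg adjustment over all genes tested, which is not past the threshold of 0.05. DESeq2 called Egr1 in this test (adjusted p = 2.68e-05), and so did edgeR without PLLA/ZnO@Col without ultrasound replicate 2 (adjusted p = 0.0492), where the adjusted p over the alternatives ranged from 2.68e-05 to 0.543.

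**Figure D1:**
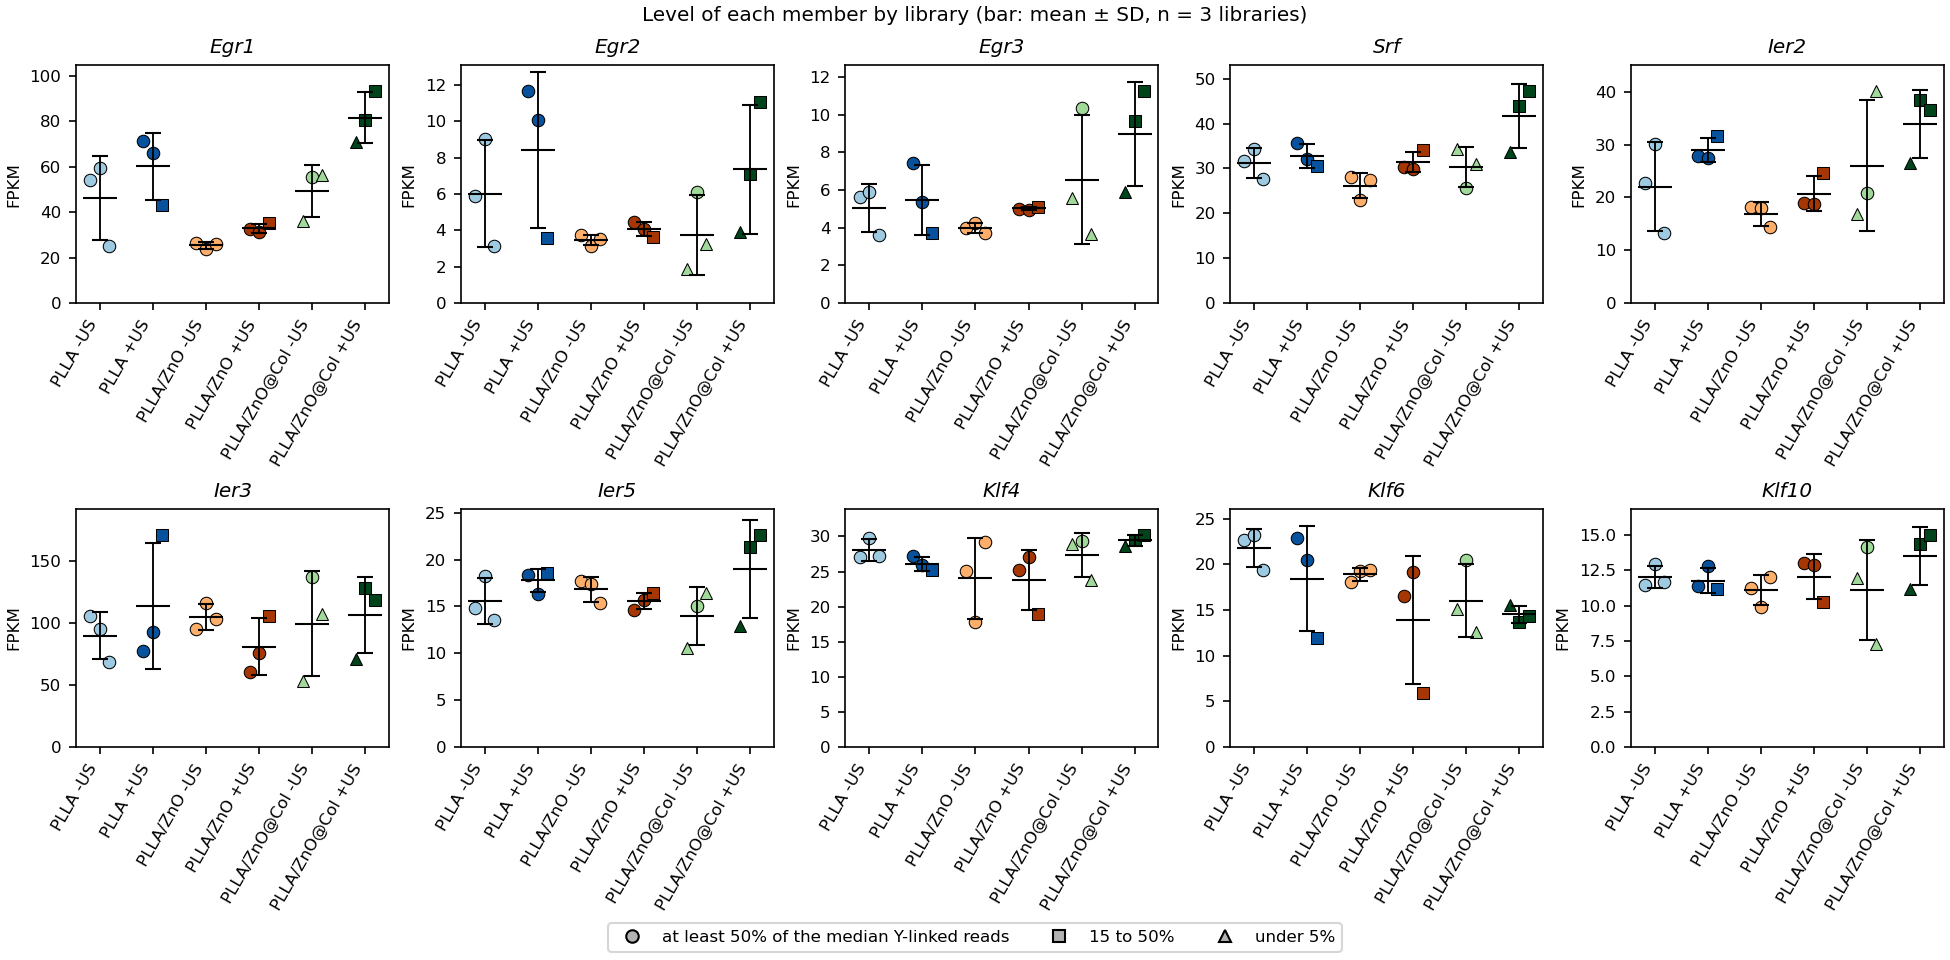
FPKM of each of the 10 genes by group, with 1 point per library, shaped by its share of the median Y-linked reads, and bars for the mean ± SD (n = 3). Egr1 is at 23.8 to 35.2 FPKM in all 6 PLLA/ZnO libraries and at 70.9 to 93.5 FPKM on PLLA/ZnO@Col with ultrasound, and the lowest Klf6 points are squares and triangles.

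Egr2 (chr10:67535475-67542188, plus strand) and Egr3 (chr14:70077203-70082614, plus strand) were expressed about an order of magnitude lower than Egr1 on the same per-length scale. Egr2 stood at 5.89, 9.04 and 3.13 FPKM on PLLA without ultrasound and at 11.7, 10.1 and 3.56 FPKM with it. It stood at 3.16 to 4.45 FPKM in the 6 PLLA/ZnO libraries. On PLLA/ZnO@Col it stood at 1.86, 6.13 and 3.24 FPKM without ultrasound and at 3.93, 7.08 and 11.03 FPKM with it. In both PLLA groups replicate 3 was the lowest for Egr2, as it was for Egr1, and the PLLA/ZnO libraries were again close together. Egr3 stood at 3.61 to 7.42 FPKM over the 6 PLLA libraries, at 3.73 to 4.26 FPKM on PLLA/ZnO without ultrasound and at 4.97 to 5.12 FPKM with it. On PLLA/ZnO@Col Egr3 stood at 5.61, 10.4 and 3.70 FPKM without ultrasound and at 5.90, 9.69 and 11.3 FPKM with it. The 3 highest Egr3 values all came from PLLA/ZnO@Col. Neighbouring groups in the order of Egr2 means all overlapped. In the test of any difference, the unadjusted p was 0.0815 for Egr2 and 0.0365 for Egr3.

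Srf (chr17:46548329-46556175, minus strand), the factor that controls many of these genes, varied over a narrower range. It stood at 27.7 to 34.5 FPKM on PLLA without ultrasound and at 30.5 to 35.7 FPKM with it. On PLLA/ZnO it stood at 28.1, 23.0 and 27.5 FPKM without ultrasound and at 30.3, 29.9 and 34.0 FPKM with it. On PLLA/ZnO@Col it stood at 34.3, 25.7 and 31.0 FPKM without ultrasound and at 33.7, 43.9 and 47.3 FPKM with it. Replicates 2 and 3 of PLLA/ZnO@Col with ultrasound were the highest Srf values of the 18, and both have partial Y-linked reads. The unadjusted p of any difference was 0.014.

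Of the IER genes, Ier2 and Ier5 encode related nuclear proteins, while Ier3 is unrelated to them in sequence. Ier2 (chr8:84661331-84662854, minus strand) stood at 22.8, 30.1 and 13.2 FPKM on PLLA without ultrasound and at 27.8, 27.5 and 31.5 FPKM with it, and at 14.4 to 18.3 FPKM on PLLA/ZnO without ultrasound and 18.8 to 24.5 FPKM with it. On PLLA/ZnO@Col Ier2 stood at 16.9, 20.9 and 40.2 FPKM without ultrasound and at 26.5, 38.4 and 36.6 FPKM with it. The order of its group means from lowest to highest was that of Egr1, and the unadjusted p of any difference was 0.0424. Ier3 (chr17:35821684-35822923, plus strand), a regulator of cell survival, was the most abundant member, at a mean of 99.3 FPKM over the 18 libraries. It ranged from 53.6 FPKM on PLLA/ZnO@Col without ultrasound to 172 FPKM on PLLA with ultrasound, and within PLLA/ZnO@Col without ultrasound alone it stood at 53.6, 137 and 108 FPKM. Neighbouring groups overlapped at each step of its order, as they did for Ier5 (chr1:155096361-155099636, minus strand), which ranged from 10.5 to 22.7 FPKM.

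The Krüppel-like factors are zinc-finger proteins that bind GC-rich and CACCC elements. Klf4 (chr4:55527143-55532466, minus strand), one of the reprogramming factors, was the steadiest member, with a coefficient of variation of 13.2% over the 18 libraries and group means between 23.8 and 29.5 FPKM. Its lowest values were 17.8 FPKM (PLLA/ZnO without ultrasound replicate 2) and 18.9 FPKM (PLLA/ZnO with ultrasound replicate 3). Klf10 (chr15:38291463-38300706, minus strand), also known as the TGF-beta inducible early gene, had group means between 11.1 and 13.5 FPKM, with single libraries from 7.27 to 15.0 FPKM. Klf6 (chr13:5861482-5870394, plus strand), a widely expressed family member, stood at 5.95 to 15.5 FPKM in the 7 libraries with under 50% of the median Y-linked reads and at 16.5 to 23.2 FPKM in the other 11, without overlap. It was the 1 member of 10 to lie lower in those 7 without overlap, against 9.68% of all genes tested, and no member lay higher, against 4.86%. Within PLLA with ultrasound it stood at 22.9, 20.5 and 12.0 FPKM, and within PLLA/ZnO with ultrasound at 16.5, 19.1 and 5.95 FPKM, where the lowest library in each case was replicate 3. This was noticed after the values were seen and is about the share among all genes.

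Across the study no gene passed the test in any of the 11 comparisons (0 of 11936, or 0% called, in each), and so none of the 10 members did. At an unadjusted p under 0.05 there were 46 to 1544 genes per comparison. DESeq2 called 0 to 506 genes, with Egr1 as its 1 member, and limma called no member. The text below therefore gives sizes and standard errors, the count of members with an unadjusted p under 0.05, and the count whose groups do not overlap in FPKM, each beside the same share of all genes tested. The 7 pairwise comparisons share groups: PLLA/ZnO without ultrasound, for example, is the reference for ultrasound on that membrane and for collagen without ultrasound, and also the group compared with PLLA for zinc oxide. Their values are given side by side and are not independent. In the test of any difference 4 of the members (Egr1, Srf, Egr3 and Ier2) had an unadjusted p under 0.05, against 10.8% of all genes tested.

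The zinc oxide comparison asks how cells on PLLA/ZnO differed from cells on PLLA. Most members were lower on PLLA/ZnO, and Egr1 had the smallest p. Without ultrasound Egr1 differed by a log2 fold change of -0.85 (SE 0.27), with an unadjusted p of 0.00687 and an edgeR adjusted p of 1. With ultrasound the Egr1 difference was -0.83 (SE 0.27), with an unadjusted p of 0.00807 and an edgeR adjusted p of 1. Egr2 differed by -0.78 (SE 0.49) and -1.03 (SE 0.49). Without ultrasound 8 members were lower and 2 higher (Ier3 and Ier5), with a median log2 fold change of -0.22 against -0.01 for all genes tested. With ultrasound 9 were lower and 1 higher (Klf10), with a median of -0.26 against -0.02. The latter median was -0.13, with 3 members higher, without PLLA with ultrasound replicate 1.

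Overlap between groups was widespread in the zinc oxide comparison. Without ultrasound no member had groups that did not overlap, against 7.61% of all genes higher and 9.95% lower. PLLA replicate 3, at 25.2 FPKM, fell within the PLLA/ZnO range for Egr1. With ultrasound Egr1 and Ier2 were lower without overlap, against 5.91% of all genes lower, and no member was higher, against 2.03%. Egr1 was the 1 member with an unadjusted p under 0.05 in each setting, against 1.19% of all genes without ultrasound and 1.27% with it. Over the 28 alternative settings the Egr1 difference ran from -1.16 to -0.65 without ultrasound and from -1.09 to -0.68 with it, and the adjusted p stayed at or above 0.478 in the former and 0.892 in the latter.

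The collagen comparison asks what the collagen composite changed relative to PLLA/ZnO. Egr1, Egr3, Ier2 and Srf were higher on PLLA/ZnO@Col in both settings, by values that did not pass the test. Without ultrasound Egr1 differed by a log2 fold change of 0.98 (SE 0.27), with an unadjusted p of 0.00265 and an edgeR adjusted p of 0.14. With ultrasound Egr1 differed by 1.34 (SE 0.28), with an unadjusted p of 0.000205 and an edgeR adjusted p of 0.339. DESeq2 on the same counts did call Egr1 in both (adjusted p = 0.0242 and 0.00792), where the adjusted p over all alternatives ranged from 0.0242 to 0.568 and from 0.00792 to 1. The log2 fold change of Egr1 kept its sign in all 28 alternatives of each, running from 0.88 to 1.15 without ultrasound and from 1.20 to 1.43 with it.

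Egr3 differed by 0.73 (SE 0.34) without ultrasound and 0.86 (SE 0.34) with it, and Ier2 by 0.66 (SE 0.30) and 0.74 (SE 0.30). The values without ultrasound rest on single libraries: Egr3 was at 0.28 without PLLA/ZnO@Col without ultrasound replicate 2, and Ier2 at 0.20 without its replicate 3. Without the 3 libraries lacking Y-linked reads Egr3 was at 1.35 (SE 0.31) and Ier2 at 0.28 (SE 0.32). Srf differed by 0.25 (SE 0.16) and 0.44 (SE 0.16). Egr2 differed by 0.12 (SE 0.49) and 0.88 (SE 0.49). With ultrasound all 10 members were higher, with a median of 0.44 against 0.00 for all genes tested, and without ultrasound 7 were higher, with a median of 0.17 against 0.04. The latter median was 0.026, with 5 members higher, without PLLA/ZnO@Col without ultrasound replicate 2. Ier3, Ier5 and Klf6 were the 3 at lower values without ultrasound, at -0.06, -0.24 and -0.21.

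Without ultrasound, Egr1 alone had groups that did not overlap, against 5.09% of all genes higher and 6.31% lower. With ultrasound Egr1, Egr3, Ier2 and Klf4 were higher without overlap, against 10.2% of all genes higher, and no member was lower, against 5.08%. An unadjusted p under 0.05 was reached by 3 members without ultrasound (Egr1, Ier2 and Egr3), against 12.9% of all genes, and by 4 with it (Egr1, Srf, Egr3 and Ier2), against 9.43%. These values rest in part on the libraries that stand apart. With the 3 libraries lacking Y-linked reads left out, Egr1 stood at 1.10 (SE 0.36) without ultrasound and 1.39 (SE 0.30) with it. With the 4 libraries with partial Y-linked reads left out, it stood at 0.99 (SE 0.27) and 1.20 (SE 0.39). The PLLA/ZnO@Col group has 1 library left without ultrasound in the former fit and 1 with ultrasound in the latter. Egr2 with ultrasound moved from 0.88 to -0.06 (SE 0.58), Egr3 with ultrasound from 0.86 to 0.29 (SE 0.44) and Srf with ultrasound from 0.44 to 0.22 (SE 0.23) without those 4, and 6 of the 10 members were then higher with ultrasound, with a median of 0.15. In the same fit Ier2 with ultrasound moved from 0.74 to 0.55 and Klf4 with ultrasound from 0.34 to 0.19.

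**Figure D2:**
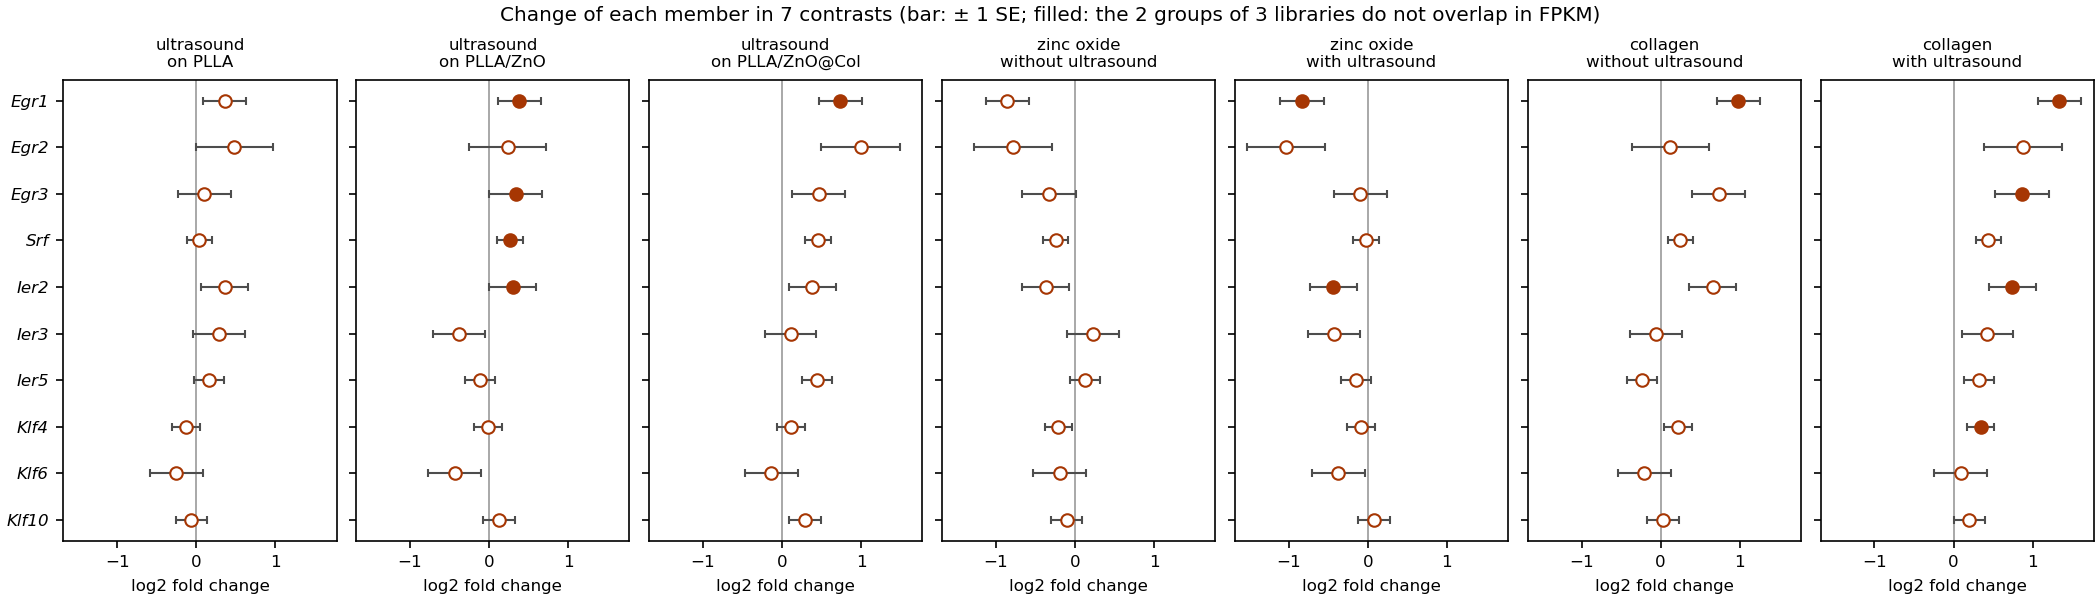
Log2 fold change of each of the 10 genes in the 7 pairwise comparisons, with bars of 1 standard error from the edgeR fit and filled points where the groups of 3 libraries do not overlap in FPKM. Egr1 is at -0.85 and -0.83 for zinc oxide and at 0.98 and 1.34 for collagen, and no value shown passed the test.

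The ultrasound comparison asks what daily ultrasound changed on each membrane. Egr1 was higher in mean with ultrasound on all 3 membranes. On PLLA it differed by 0.36 (SE 0.27), on PLLA/ZnO by 0.38 (SE 0.27) and on PLLA/ZnO@Col by 0.74 (SE 0.27, unadjusted p = 0.0165, edgeR adjusted p = 0.525). Egr2 differed by 0.48 (SE 0.49), 0.23 (SE 0.49) and 0.99 (SE 0.49), and Ier2 by 0.36, 0.30 and 0.38 (SE 0.30 each). Srf differed by 0.04, 0.26 and 0.45 (SE 0.16 each). The KLF genes differed among themselves: Klf4 was at -0.13, -0.02 and 0.11, Klf6 at -0.26, -0.44 and -0.13, and Klf10 at -0.06, 0.12 and 0.29. Ier3 took both signs, at 0.28, -0.38 and 0.11.

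On PLLA 7 members were higher with ultrasound, with a median of 0.13 against 0.00 for all genes tested. Leaving out 1 library gave counts of 5 to 8 and medians from 0.0067 (without PLLA without ultrasound replicate 3) to 0.25 (without its replicate 2). No member had groups without overlap there, against 4.99% of all genes higher and 5.8% lower, and none had an unadjusted p under 0.05, against 0.436%. On PLLA/ZnO 6 were higher, with a median of 0.18 against -0.03. There Egr1, Egr3, Srf and Ier2 were higher without overlap, against 6.82% of all genes higher, and no member was lower, against 4.62%, while none had an unadjusted p under 0.05, against 3.24%. Without the 4 libraries with partial Y-linked reads, these moved from 0.38, 0.33, 0.26 and 0.30 to 0.33, 0.32, 0.20 and 0.16. In that fit 7 members were higher on PLLA (median 0.14) and 7 on PLLA/ZnO (median 0.18).

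On PLLA/ZnO@Col 9 members were higher with ultrasound, with a median of 0.41 against -0.03 for all genes tested, and Klf6 was the exception. Egr1 was the 1 member higher without overlap, against 5.28% of all genes higher, and no member was lower, against 5.74%. Srf, Egr1 and Ier5 had an unadjusted p under 0.05, against 8.18% of all genes. Ier5 differed by 0.44 (SE 0.19) and Srf by 0.45 (SE 0.16). Without the 4 libraries with partial Y-linked reads the ultrasound group on this membrane has 1 library left, and its spread is taken from the other groups. Egr1 was then at 0.54 (SE 0.37), Srf at 0.17 (SE 0.22), Egr2 at 0.11 (SE 0.54) and Ier5 at -0.09 (SE 0.24), and 6 members were higher, with a median of 0.04. Without the 3 libraries lacking Y-linked reads, Egr1 was at 0.69 (SE 0.42), Srf at 0.87 (SE 0.20) and Ier5 at 0.60 (SE 0.18), with 1 library left in the group without ultrasound.

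Averaged over the 3 membranes, ultrasound gave Egr1 a log2 fold change of 0.49 (SE 0.16, unadjusted p = 0.00691, edgeR adjusted p = 0.363) and Srf one of 0.25 (SE 0.09, unadjusted p = 0.0165, edgeR adjusted p = 0.363). They were the 2 members with an unadjusted p under 0.05, against 12.1% of all genes tested. Without the 3 libraries lacking Y-linked reads Srf stood at 0.40 (SE 0.09), and without the 4 with partial reads at 0.16 (SE 0.11). Egr1 stood at 0.48 in both fits. Each of these fits leaves 1 library in a PLLA/ZnO@Col group. Whether ultrasound acted differently on different membranes was tested as a difference of differences. No member had an unadjusted p under 0.05 for PLLA/ZnO minus PLLA (0.385% of all genes did) or for PLLA/ZnO@Col minus PLLA/ZnO (2.2%). For Egr1 these differences were 0.02 (SE 0.38) and 0.36 (SE 0.38). The smallest p was that of Ier5 for PLLA/ZnO@Col minus PLLA/ZnO, at 0.55 (SE 0.27, unadjusted p = 0.0559, edgeR adjusted p = 0.999).

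Over the 18 libraries Egr1 correlated most with Ier2, Srf, Egr3 and Egr2 among the members. These are descriptions over libraries that share groups and depth. Of the 45 pairs of members, 36 had a positive Pearson correlation of log2 CPM (counts scaled to library size), with a median of 0.42. The highest was Egr1 with Ier2, at 0.84, and Egr1 correlated with Srf at 0.74, with Egr3 at 0.74 and with Egr2 at 0.73. The other pairs among these genes stood at 0.45 (Egr3 with Ier2) to 0.65 (Srf with Ier2). Some pairs with other members were as high, such as Egr3 with Klf10 at 0.69 and Klf4 with Klf10 at 0.64. After group means were removed, Egr3 with Ier2 stood at -0.0007. Egr1 and Klf6 had a value of 0.04 over the 18 libraries and of 0.75 over the 11 with at least 50% of the median Y-linked reads. Over those 11 libraries 39 pairs were positive (median 0.34), and after group means were removed 33 were (median 0.31).

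The 5 genes outside the members whose pattern was most like that of Egr1 were Ccn1, Trib1, Fos, Plk2 and Stk40, at correlations of 0.90, 0.89, 0.86, 0.85 and 0.84 over the 18 libraries. For comparison, 48.6% of genes tested had a positive value. Ccn1 encodes a secreted matrix protein, Fos the AP-1 subunit, Trib1 a pseudokinase and Plk2 a polo-like kinase. After group means were removed Fos stood at 0.91 and Stk40 at 0.43. Fos stood at 9.91, 11.6 and 2.26 FPKM on PLLA without ultrasound and at 2.78 to 4.04 FPKM in the 6 PLLA/ZnO libraries. On PLLA/ZnO@Col it stood at 1.33, 6.96 and 9.10 FPKM without ultrasound and at 8.27, 13.4 and 14.3 FPKM with it. The value of 1.33 FPKM lay below all PLLA/ZnO libraries. Ccn1 stood at 105 to 133 FPKM in the 6 PLLA/ZnO libraries and at 235, 314 and 338 FPKM on PLLA/ZnO@Col with ultrasound. For Fos, as for Egr1, PLLA without ultrasound replicate 3 lay below the other replicates of its group. The genes most like Klf4 were Igf1r, Sfswap, Mau2, Ptpn21 and 4931406P16Rik, at 0.87 to 0.89, and none of them is in the immediate early list. Without the 2 libraries farthest from the median of Klf4 their values were 0.69 to 0.79.

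**Figure D3:**
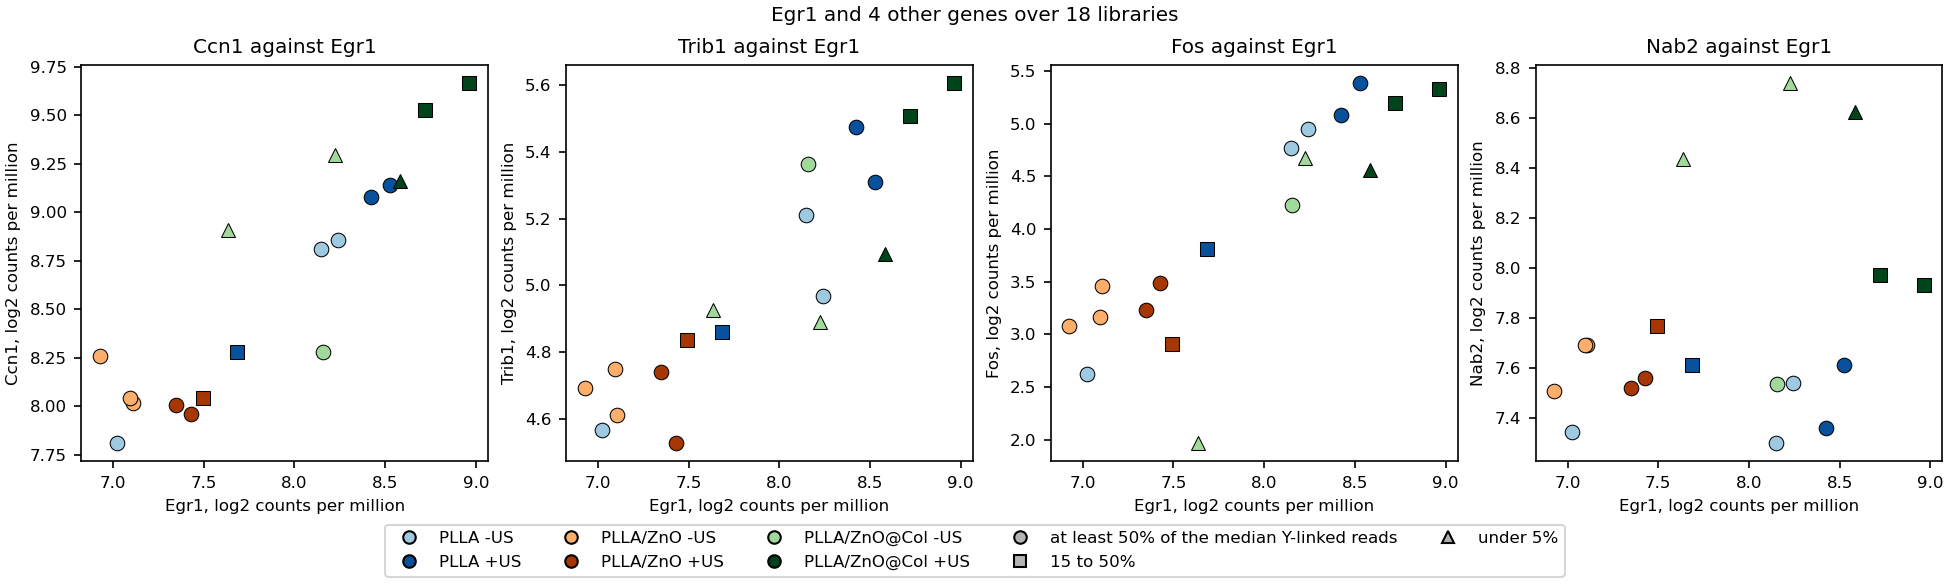
Log2 CPM of Ccn1, Trib1 and Fos, the 3 genes most like Egr1, and of the EGR corepressor Nab2 against that of Egr1, with 1 point per library, coloured by group and shaped by the share of the median Y-linked reads. The first 3 run with Egr1 at correlations of 0.86 to 0.90, while the 3 highest Nab2 points are the libraries with under 5% of those reads.

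The related genes of the pathway were taken as lists, and no gene of any list passed the test in any comparison. For comparison, 55% of all genes tested were higher for collagen without ultrasound and 50.4% with it. For zinc oxide 48.9% were higher without ultrasound and 46.2% with it. With ultrasound 50.5% were higher on PLLA, 46.3% on PLLA/ZnO and 47.1% on PLLA/ZnO@Col. Of 32 other immediate early genes 29 were tested. For collagen with ultrasound 26 of them were higher (median 0.47) and for zinc oxide with ultrasound 2 were higher (median -0.23). Jun, an AP-1 subunit, had the smallest p of this list in the test of any difference (0.000653, edgeR adjusted p = 0.198). Jun stood at 33.1 to 39.4 FPKM in the 6 PLLA/ZnO libraries and at 53.7 to 58.8 FPKM on PLLA/ZnO@Col with ultrasound. Ccn2, a matrix protein gene, had group means of 3.80 FPKM on PLLA/ZnO and 9.98 FPKM on PLLA/ZnO@Col without ultrasound, at 16.1, 4.60 and 9.23 FPKM in the latter.

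The 10 tested genes of the 13 that encode feedback inhibitors of MAP kinase signalling were mostly higher for collagen, 9 of them with ultrasound (median 0.67) and 9 without it (median 0.20). For zinc oxide none of the 10 was higher without ultrasound (median -0.26). Dusp4, a nuclear MAP kinase phosphatase, differed by 1.52 (SE 0.33, edgeR adjusted p = 0.078) for collagen without ultrasound, at levels of 1.47 to 2.19 FPKM against 0.48 to 0.75 FPKM. Dusp5, a phosphatase for ERK, differed by 0.79 (SE 0.21, edgeR adjusted p = 0.124) in the same comparison. The 12 genes of the MAP kinase cascade itself took both signs in the collagen comparisons, from -0.49 to 0.31 without ultrasound (7 higher, median 0.05) and from -0.42 to 0.26 with it (6 higher, median 0.00). Among them Egfr, a growth factor receptor gene, had the smallest p in the test of any difference (0.158).

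Of the EGR cofactors, Nab2, a corepressor that binds EGR proteins, stood at 95.7, 55.2 and 122 FPKM on PLLA/ZnO@Col without ultrasound and at 111, 73.3 and 69.6 FPKM with it, against 45.9 to 65.0 FPKM in the other 12 libraries. Its 3 highest values were those of the 3 libraries lacking Y-linked reads. Nab1, the related corepressor, stood at 4.57 to 24.3 FPKM and was lowest in PLLA/ZnO with ultrasound replicate 3, the library in which Klf6 was also lowest. Of the Srf cofactors, 6 of 7 were tested, and 5 were higher for collagen in both settings (medians 0.19 and 0.20). Elk3, an ETS cofactor, differed by 0.30 (SE 0.11) and 0.32 (SE 0.11), and Elk1 by 0.47 (SE 0.17) and 0.19 (SE 0.17).

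Of the 12 tested cytoskeletal Srf targets, all 12 were higher for collagen without ultrasound (median 0.14) and 11 with it (median 0.12). None of the 12 had an unadjusted edgeR p under 0.05 in either setting. Zyx, a focal adhesion protein gene, differed by 0.38 and 0.37 (SE 0.19 each), and Flna, which cross-links actin, by 0.31 and 0.43 (SE 0.26 each). Zyx stood at 107, 63.5 and 118 FPKM on PLLA/ZnO@Col without ultrasound and at 71.3 to 79.8 FPKM on PLLA/ZnO without it. Its high pair, replicates 1 and 3, lack Y-linked reads, and replicate 2 was the lowest of the 18 libraries. In the same comparison Flna stood at 328, 188 and 182 FPKM on PLLA/ZnO@Col, with only replicate 1 above the PLLA/ZnO range (123 to 230 FPKM). The counts and medians of this list were not rerun without these libraries. For zinc oxide with ultrasound 10 of these 12 were higher (median 0.17), where 9 of the 10 members were lower. Of the 7 other KLF genes tested, 5 were higher for collagen without ultrasound and 4 with it. Klf2, a flow-responsive family member, differed by 0.83 (SE 0.33) and 0.82 (SE 0.33), and Klf16 by 0.35 (SE 0.15) and 0.33 (SE 0.15). Without ultrasound Klf2 stood at 5.36, 2.19 and 7.86 FPKM on PLLA/ZnO@Col and at 2.75 to 3.43 FPKM on PLLA/ZnO. Its high values in the former group were those of replicates 1 and 3, which lack Y-linked reads, and replicate 2 lay below all PLLA/ZnO libraries. All 4 relatives of the IER genes were tested, and 2 were higher for collagen in either setting (Ier3ip1 differed by -0.29 and -0.28, and Ier5l by -0.25 and -0.02).

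Of the 7 TGF-beta inducible genes, 6 were higher for collagen with ultrasound (median 0.41). Smad6, an inhibitory SMAD, differed by 0.66 (SE 0.19, edgeR adjusted p = 0.525) for ultrasound on PLLA/ZnO@Col. Of the 8 genes of heat shock and handling, 8 were higher with ultrasound on PLLA, 7 on PLLA/ZnO and 6 on PLLA/ZnO@Col, with medians of 0.13, 0.16 and 0.16. Hspa1b, an inducible HSP70 gene, stood at 6.48, 8.30 and 5.59 FPKM on PLLA/ZnO@Col without ultrasound and at 10.5 to 12.7 FPKM on PLLA/ZnO without it, a difference of -0.79 (SE 0.22, edgeR adjusted p = 0.147), and Hmox1 differed by 0.59 (SE 0.28). The lowest Hspa1b values were those of the 3 libraries lacking Y-linked reads. Whether the genes of these lists have a part in the levels of the members was not tested. In RNA from whole wells, fewer responding cells and less RNA per cell cannot be told apart.

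**Figure D4:**
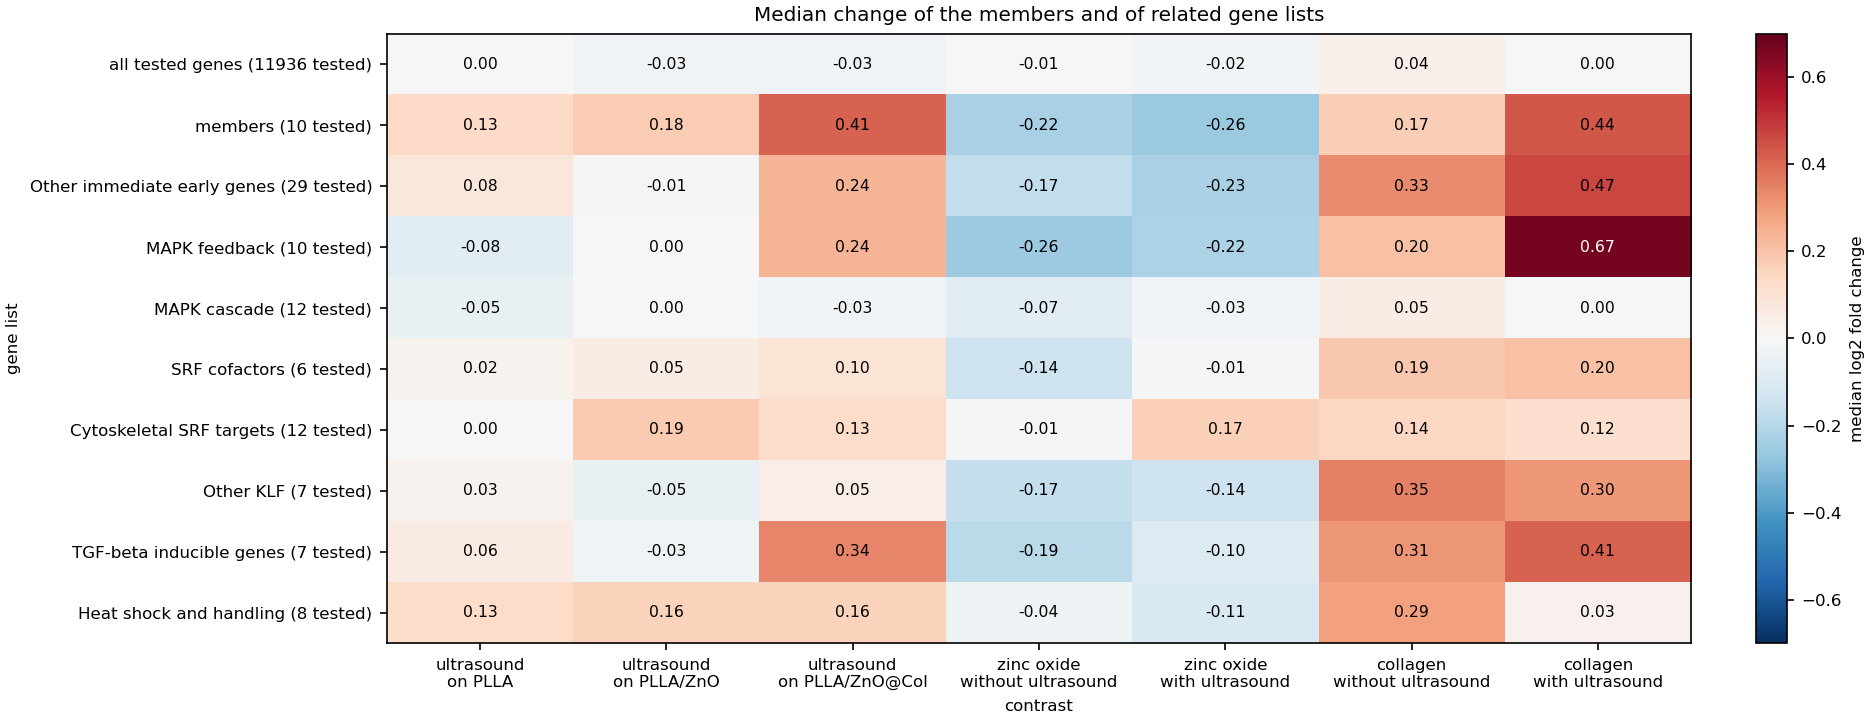
Median log2 fold change of the 10 genes and of the 8 related lists with at least 6 genes tested (rows) in the 7 pairwise comparisons (columns). The 10 genes are at -0.22 and -0.26 for zinc oxide and at 0.17 and 0.44 for collagen, the MAP kinase cascade stays between -0.07 and 0.05, and all genes tested stay between -0.03 and 0.04.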

How the data were processed

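Per the file headers, the authors deposited 1 table of raw read counts and FPKM per gene for 18 libraries. Per the submitters' processing notes, cutadapt 1.9, FastQC and the build GRCm38 were used, with no roles stated. No source used here gives the aligner, the counting tool or the strand setting, so overlapping genes could share counts. From the deposited counts, edgeR 4.0.16 in R 4.3.3 tested genes with FPKM of at least 1 in at least 3 libraries (TMM, 1 mean per group, quasi-likelihood F-test, two-sided, Benjamini-Hochberg over 11936 genes, threshold 0.05). Levels are the authors' FPKM. DESeq2 1.42.0 and limma 3.58.1 on log2 FPKM served as alternatives, as did other filters, each library left out, a replicate block and the fits without libraries of low Y-linked reads, which were added after seeing the data. The fit was tested on simulated data. Members and lists were chosen with earlier results of these data known. Named genes are all 10 members, the 2 of each related list with the smallest p in the test of any difference, and the 5 most correlated with Egr1 and with Klf4; a few others are named by role or as counts of 5 or fewer. Some genes that this rule names are not reported here. Promoter windows come from RefSeq, exon overlaps from a GENCODE annotation of GRCm38, and gene positions from the deposited table.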

Additional observations from a re-analysis of the deposited data

How the results depend on the processing

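For 23 fold changes of members, 637 of 642 values over the alternatives kept their direction and side of the threshold; the other fold changes of members were rerun only as counts and medians over the 10. Without the 4 libraries with partial Y-linked reads, Ier5 for ultrasound on PLLA/ZnO@Col turned to -0.094 and Egr2 for collagen with ultrasound to -0.065; the cause was not tested. Of the 11 comparisons (0 genes called in each), DESeq2 called 5 genes for ultrasound on PLLA/ZnO, 3 on PLLA/ZnO@Col, 1 for zinc oxide without ultrasound and 2 with it, 407 for collagen without ultrasound and 47 with it, 1 for averaged ultrasound and 506 for any difference; 1 member, Egr1, was called in both collagen comparisons and in any difference (adjusted p = 2.68e-05 in the last, over a range of 2.68e-05 to 0.543). limma on log2(FPKM + 0.1) called 1 gene for collagen without ultrasound. Without the 3 libraries lacking Y-linked reads, 111 genes were called for ultrasound on PLLA/ZnO@Col, 166 for collagen without ultrasound, 1044 for averaged ultrasound (1 member, Srf), 13 for ultrasound on PLLA/ZnO@Col minus PLLA/ZnO and 25 for any difference. Without the 4 with partial reads, 83 were called for collagen without ultrasound, 1 with it and 6 for any difference.

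With each library left out in turn, counts ran from 0 to 1 for ultrasound on PLLA/ZnO, zinc oxide with ultrasound, averaged ultrasound and both differences of differences (1 each without PLLA/ZnO with ultrasound replicate 2), and from 0 to 38 for ultrasound on PLLA/ZnO@Col (38 without PLLA/ZnO@Col with ultrasound replicate 1). For collagen without ultrasound they ran from 0 to 1039: 1039 without PLLA/ZnO@Col without ultrasound replicate 2, 18 without its replicate 3, 41 without PLLA/ZnO with ultrasound replicate 3 and 95 without PLLA/ZnO@Col with ultrasound replicate 1. For any difference they ran from 0 to 211 (211 without PLLA/ZnO@Col without ultrasound replicate 2, where Egr1 passed, so 0 to 1 members, and 7 without PLLA/ZnO@Col with ultrasound replicate 1). The replicate block gave 0 calls in all 11 comparisons. Same-numbered libraries of different groups had deviations correlated at a median of 0.06 (-0.51 to 0.73), with 21 of 45 pairs over 0.1, where 32 of 90 pairs with other numbers were. The numbers were not taken to pair the samples, since not every pair was over 0.1, a rule too strict to exclude pairing. Pairs with other numbers had a median of -0.02, and 11 of 18 libraries correlated best with their own number. Fits on only the groups compared were not run for averaged ultrasound and any difference. The spread between 3 replicates, not counting depth, limits these comparisons.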
